A study of Mus musculus with 4 samples.

Results

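Matrix metalloproteinases (MMPs) and tissue inhibitors of metalloproteinases (TIMPs) were followed in the injured cortex of mice after a stroke. The 10 genes, Mmp2, Mmp3, Mmp8, Mmp9, Mmp11, Mmp12, Mmp14, Timp1, Timp2 and Timp3, were taken from a fixed list of symbols, and every array probe whose RefSeq accession belonged to 1 of them was kept as a separate measurement. They are 10 of the 20832 genes that the array's probes could be matched to. This gave 13 of the 39429 probes of the array outside its controls, and 12 of the 13 were bright enough to be tested. MMPs are zinc-dependent enzymes that cut the extracellular matrix; most are made as inactive proenzymes and need activation by another protease, and TIMPs block the active site of the active enzyme. After ischaemia they are known for opening the basement membrane of brain vessels, which lets plasma and leukocytes into the tissue, and later for remodelling of matrix and vessels.

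Samples labelled Ndrg2KO and samples labelled wild type (WT) came from the cortex of the occluded side, 24 h after permanent occlusion of the left middle cerebral artery by electrocoagulation. All mice were C57BL/6 and 8 weeks old, and both genotypes had the occlusion; no uninjured or sham-operated tissue was analysed here, so levels cannot be set against a resting cortex. The knockout label refers to Ndrg2, a gene of astrocytes, and neither the removed stretch nor the way it was removed is given in the sources used here. Each of 4 two-colour arrays carried 1 Ndrg2KO-labelled sample in Cy3 and 1 WT sample of the same replicate number in Cy5, with no array of the opposite dye order, so dye and genotype cannot be told apart for a single probe.

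The probe of Ndrg2 itself stood at log2 ratios of -0.22, -0.22, -0.18 and -0.11 on arrays 1 to 4, a small difference for a knockout (mean -0.18; limma, adjusted p = 0.0244). That call of Ndrg2 was lost in 6 of 14 alternatives, and with the scanner software's log ratio and the series matrix the mean was -0.04 (adjusted p = 0.528), so the genotype labels have no check in these data. A probe outside the removed part would check nothing, and the samples are therefore called Ndrg2KO-labelled throughout. The labels did not name separate animals, so each p-value reflects the spread among these 4 pairs alone, and that spread may be technical. Of the 43020 spots outside controls, 73.6 to 74.9% were well above background in the Ndrg2KO-labelled channel and 76.7 to 79.0% in the WT channel, and the number of arrays, 4, limited the precision. Across kept probes, which are not independent replicates, the log2 ratios of arrays 1 and 2 correlated at 0.726, those of arrays 3 and 4 at 0.626, and the 4 remaining pairings lay in the range 0.41 to 0.468.

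Mmp3 and Mmp11 fell and Mmp14 rose in Ndrg2KO-labelled cortex, and the other members did not pass the test. Counted by probe, 2 of 12 tested probes were lower, with 1 probe each for Mmp3 and Mmp11, and 1 was higher. Among all 30257 kept probes 11.7% were lower and 9.29% higher by the same rule, an adjusted p under 0.05 in limma, and with 12 probes a count of 2 or 1 is no result about the family. By size of the log2 ratio, Mmp3 ranked 3 from the lowest of all kept probes and Timp1, which did not pass, ranked 26. Levels below are normalised intensities on a linear scale, and they can be compared between samples for the same probe or the same sum of probes, not between probes.

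**Figure D1:**
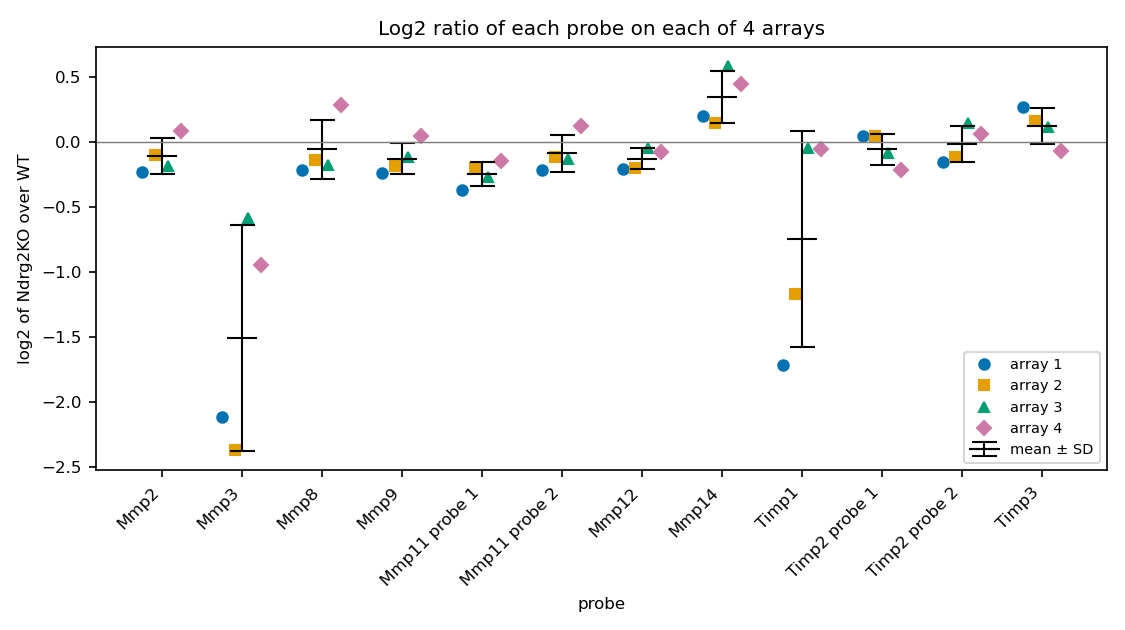
Log2 ratio of Ndrg2KO-labelled over WT for each of the 12 tested probes on arrays 1 to 4 (coloured symbols), with the mean and SD over the 4 arrays in black. Mmp3 and Timp1 had means of -1.51 and -0.75 and lay lowest on arrays 1 and 2, and Mmp14 lay above 0 on all 4 arrays.

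Among the secreted proteases, Mmp3 encodes stromelysin 1, which cuts many matrix proteins and activates other proMMPs, proMMP9 among them. Its probe read 479, 499, 2260 and 1700 in Ndrg2KO-labelled samples 1 to 4, against 2080, 2580, 3410 and 3280 in WT samples 1 to 4. Ndrg2KO-labelled samples 1 and 2 lay far below every WT sample, while Ndrg2KO-labelled sample 3 lay above the lowest WT sample, so the groups overlapped. The log2 ratios were -2.12, -2.37, -0.59 and -0.95, negative on 4 of 4 arrays, with a mean of -1.51 ± 0.87 (SD, n = 4), or 2.84-fold lower (limma, adjusted p = 0.0126; 95% interval of the log2 ratio -2.16 to -0.86). The call was lost for Mmp3 in 4 of 14 alternatives. Without replicate 1 Mmp3 stood at -1.30 (limma, adjusted p = 0.0525), and with the channels taken as unpaired samples at -1.51 (limma, adjusted p = 0.0624). With the scanner software's log ratio and with the deposited series matrix it stood at -1.63 (limma, adjusted p = 0.05 and 0.0501). Over all alternatives the adjusted p of Mmp3 ranged from 0.000161 to 0.0624.

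Timp1 encodes the inducible inhibitor of secreted MMPs, which rises in many injured tissues. It read 2920, 4970, 12000 and 13900 in Ndrg2KO-labelled samples 1 to 4, against 9600, 11200, 12400 and 14500 in WT samples. As for Mmp3, the first and second Ndrg2KO-labelled samples lay below every WT sample, but the other two lay among the WT samples. The log2 ratios were -1.72, -1.17, -0.05 and -0.06, with a mean of -0.75 ± 0.83 (SD, n = 4), which did not pass (limma, adjusted p = 0.0859; 95% interval -1.37 to -0.12). Without replicate 1 the mean was -0.43, and without replicate 3 or 4 it was -0.98. With median centring in place of loess Timp1 stood at -1.14 and passed (limma, adjusted p = 0.0016). In that setting 15613 of the 30257 kept probes were called lower.

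The spread of both genes lay mainly in the Ndrg2KO-labelled samples. The SD of the log2 level of Mmp3 was 1.17 over the Ndrg2KO-labelled samples and 0.33 over the WT samples, and that of Timp1 was 1.07 and 0.25. Over all kept probes the median SD was 0.093 in the Ndrg2KO-labelled channel and 0.078 in the WT channel. The SDs in the Ndrg2KO-labelled channel exceeded those of 99.9% of kept probes for both genes, and those in the WT channel 99.1% for Mmp3 and 98.0% for Timp1, so these genes also varied more than most between WT samples.

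**Figure D2:**
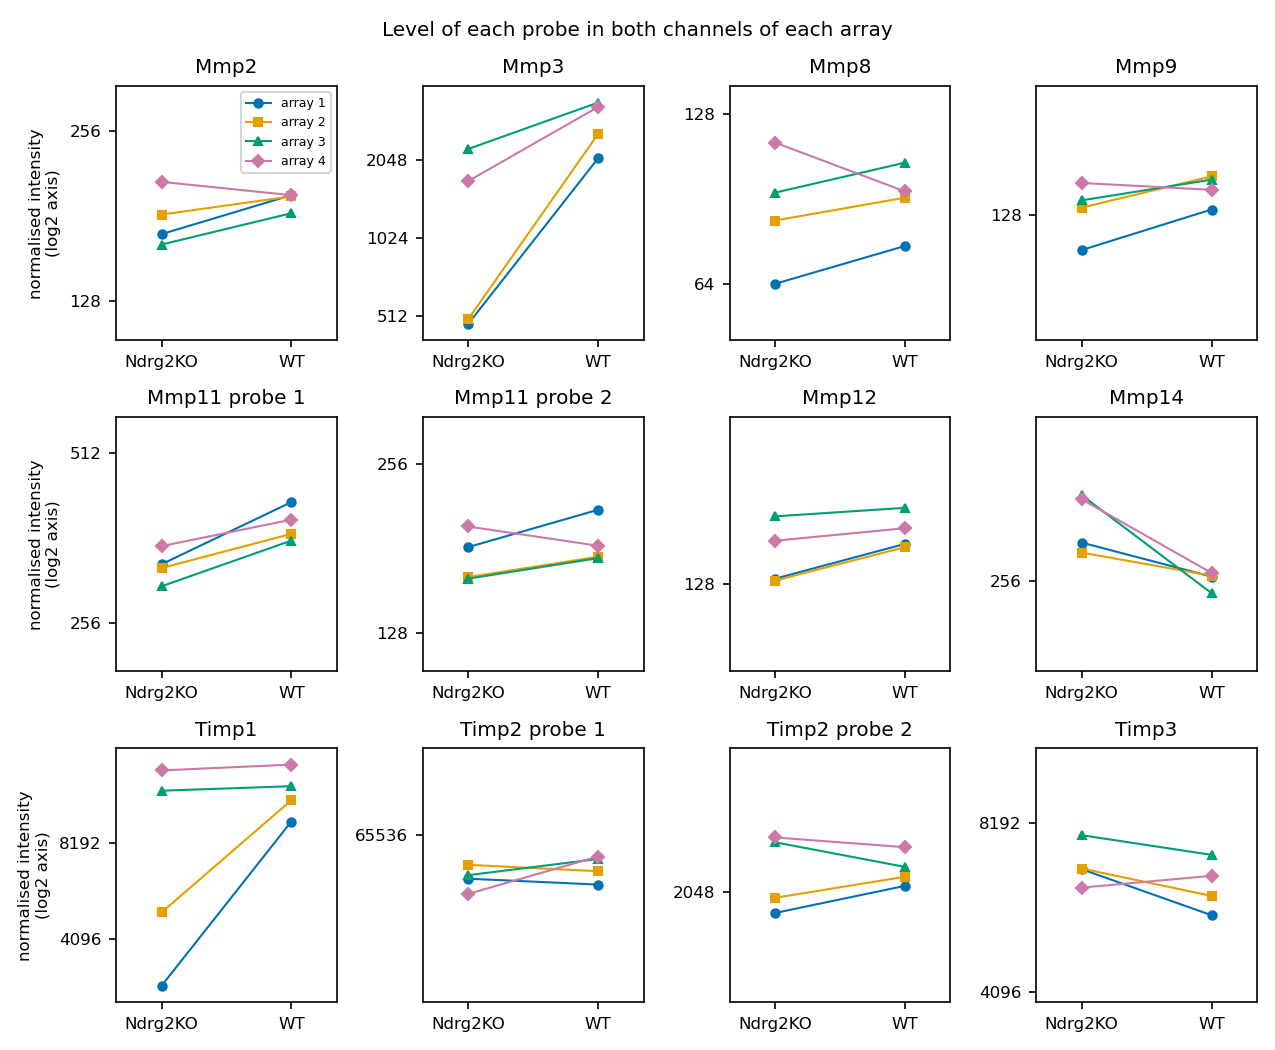
Normalised intensity (log2 axis, each panel with its own range) of each tested probe in the Ndrg2KO-labelled channel (left) and the WT channel (right), with a line for each array. Mmp3 and Timp1 show steep lines on arrays 1 and 2, where Mmp3 read 479 and 499 in Ndrg2KO-labelled samples against 2080 and 2580 in WT samples, and all 4 lines of Mmp14 slope down towards WT.

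Promoter sequences are shown for Mmp3, Timp1 and Mmp14, which had the largest log2 ratios of the members in either direction, and for Mmp12, which shares a motif with Mmp3. RefSeq windows on GRCm38.p6, from 250 bases before to 50 bases after a start, were matched by symbol for 8 of the 10 genes (not for Mmp2 and Mmp9). The letters TGACTCA, the classical site of the AP-1 family of Fos and Jun proteins, were searched on both strands, where they read TGAGTCA on the other strand, and occurred in 5.2% of all 32851 windows of this length. Of the 8 matched genes only Mmp3, 46 bases before its start, and 1 of the 2 windows of Mmp12, 44 bases before its start, held them. Only these exact letters were searched, so variants of them, such as TGAGTAA in the window of Timp1, were not counted or marked. The letters AGGAAG, a site of the Ets factor PEA3 that reads CTTCCT on the other strand, were found on either strand in 35.4% of all windows and stood 3 times in that of Timp1, once each in those of Mmp3, Mmp8, Mmp14 and Timp3, and in the other window of Mmp12. A match is a description of the letters and not a site in use. Capitals mark AP-1 letters in the windows shown, which are those of Mmp3 (chr9:7445572-7445871, plus strand), Mmp12 (chr9:7347124-7347423, plus strand), Timp1 (chrX:20869916-20870215, plus strand) and Mmp14 (chr14:54431348-54431647, plus strand).
Mmp3: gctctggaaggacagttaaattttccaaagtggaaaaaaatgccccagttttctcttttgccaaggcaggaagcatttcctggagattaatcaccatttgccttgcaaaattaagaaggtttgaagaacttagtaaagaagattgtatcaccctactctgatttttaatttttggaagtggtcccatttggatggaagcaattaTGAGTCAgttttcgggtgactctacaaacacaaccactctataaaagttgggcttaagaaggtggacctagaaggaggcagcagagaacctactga
Mmp12: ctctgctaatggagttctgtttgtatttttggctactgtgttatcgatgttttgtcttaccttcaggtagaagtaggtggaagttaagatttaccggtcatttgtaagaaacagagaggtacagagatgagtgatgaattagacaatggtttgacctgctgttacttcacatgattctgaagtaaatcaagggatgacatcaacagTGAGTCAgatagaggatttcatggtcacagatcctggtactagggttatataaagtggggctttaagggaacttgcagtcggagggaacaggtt
Timp1: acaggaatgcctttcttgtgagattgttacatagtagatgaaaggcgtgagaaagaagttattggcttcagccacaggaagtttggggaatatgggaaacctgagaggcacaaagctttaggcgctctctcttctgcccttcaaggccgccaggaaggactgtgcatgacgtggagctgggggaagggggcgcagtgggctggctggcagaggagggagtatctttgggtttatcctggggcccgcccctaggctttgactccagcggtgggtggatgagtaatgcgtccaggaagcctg
Mmp14: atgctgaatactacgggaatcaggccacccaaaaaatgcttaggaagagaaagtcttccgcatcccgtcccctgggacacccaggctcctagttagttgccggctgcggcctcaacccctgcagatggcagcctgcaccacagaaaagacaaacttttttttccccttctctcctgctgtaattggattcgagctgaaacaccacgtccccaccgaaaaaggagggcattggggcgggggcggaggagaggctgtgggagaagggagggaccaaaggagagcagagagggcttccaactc

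The genes whose 4 log2 ratios lay nearest to those of Mmp3, by root mean square difference over the 4 arrays among 16051 other named genes, were Esm1 (difference 0.52), an endothelial proteoglycan gene, Ccl9 (0.58), a chemokine gene, and Il33 (0.62), an alarmin gene. Nearest to Timp1 were Fos (0.22), a subunit of AP-1, S100a8 (0.26), a calcium-binding protein of neutrophils, and Klk6 (0.28), a secreted serine protease. Fos stood at -1.57, -0.78, -0.20 and 0.01 on arrays 1 to 4 and S100a8 at -1.28, -1.18, -0.30 and 0.04, and like Timp1 neither passed (limma, adjusted p = 0.0864 and 0.0575). With 4 arrays, many genes can lie this near, and the difference is given only as a description.

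The gelatinases Mmp2 and Mmp9 cut denatured collagen and the collagen of basement membranes, and Mmp9 is the member most often linked to barrier opening after stroke. Mmp9 read 111, 132, 136 and 146 in Ndrg2KO-labelled samples, against 131, 150, 148 and 142 in WT samples, and the groups overlapped. Its log2 ratios of -0.24, -0.19, -0.12 and 0.04 averaged -0.13 ± 0.12 (SD, n = 4) and did not pass (limma, adjusted p = 0.144), with a 95% interval of -0.25 to 0.00. The probe was dim, at percentile 19.6 of intensity among kept probes, and its mean moved with the processing. It was -0.21 with normexp at offset 0 and -0.29 with the scanner software's log ratio. With median centring in place of loess Mmp9 stood at 0.16 and passed as higher (limma, adjusted p = 0.0247). The interval thus holds only for the processing as reported. The same probe of Mmp9 was spotted 10 times on each array, which measures the error between spots of 1 hybridisation but not that of labelling, hybridisation or sampling. The SD between spots was 0.09, 0.10, 0.11 and 0.07 on arrays 1 to 4. All 10 spots were below 0 on arrays 1 and 2, 8 were on array 3 and 2 on array 4, with medians of -0.23 on array 1 and 0.03 on array 4.

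**Figure D3:**
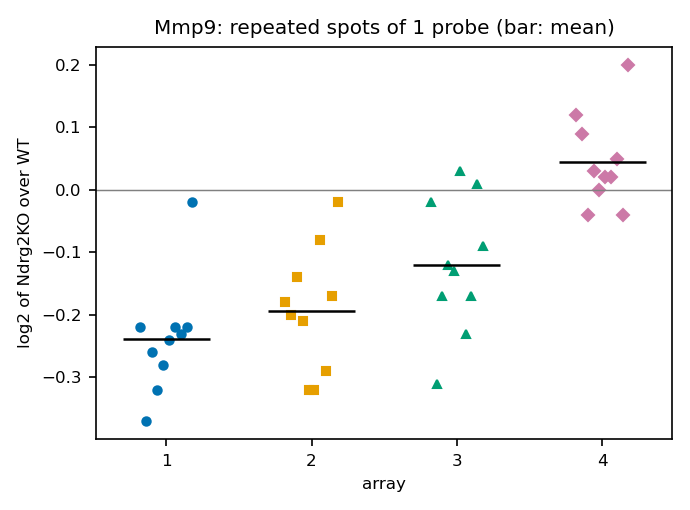
Log2 ratio of Ndrg2KO-labelled over WT for the 10 spots of the Mmp9 probe on each array, with bars at the mean. Spots ran from -0.37 to -0.02 on array 1 and from -0.04 to 0.20 on array 4.

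Mmp2 read 168, 182, 161 and 208 in Ndrg2KO-labelled samples, against 197, 196, 183 and 197 in WT samples. The groups overlapped through the fourth Ndrg2KO-labelled sample, the highest of all 8. The mean log2 ratio was -0.11 ± 0.14 (SD, n = 4; limma, adjusted p = 0.219; 95% interval -0.24 to 0.03).

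Mmp8 encodes neutrophil collagenase and Mmp12 macrophage elastase, and both lie near Mmp3 in a cluster of MMP genes on chromosome 9. Mmp8 was close to the detection limit: it was well above background in 2 of 4 Ndrg2KO-labelled and 3 of 4 WT samples, and so entered the test only through the WT channel. It read 64.0, 82.9, 92.9 and 114 in Ndrg2KO-labelled samples, against 74.7, 91.0, 105 and 93.4 in WT samples, with a mean log2 ratio of -0.06 ± 0.23 (SD, n = 4; limma, adjusted p = 0.618), and its direction was not settled. It stood at 0.09 with the scanner software's log ratio and at 0.58 with median centring in place of loess, where it passed as higher (adjusted p = 0.000193). The brighter probe of Mmp12 read 131, 130, 169 and 153 in Ndrg2KO-labelled samples, against 151, 149, 175 and 161 in WT samples. Its log2 ratios were negative on 4 of 4 arrays, at -0.21, -0.20, -0.05 and -0.08, and averaged -0.13 ± 0.08 (SD, n = 4; limma, adjusted p = 0.0857). The other probe of Mmp12 was not well above background on any array in either channel and was not tested. With median centring the brighter Mmp12 probe stood at 0.10.

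Mmp8 and Mmp9 are stored in neutrophils and Mmp12 is made by macrophages, so markers of those cells were read beside them. With the brightest kept probe standing for each of 17012 genes, 12.7% of all genes fell and 8.89% rose. Of 8 measured neutrophil markers 2 fell, with a median log2 ratio of -0.25 over the 8. Their summed intensity was 45100 to 53600 in Ndrg2KO-labelled samples, against 57500 to 66100 in WT samples, but most of it came from the Csf3r probe alone, with a mean of 44200 in Ndrg2KO-labelled and 52400 in WT samples. Of 12 measured microglia and macrophage markers 4 fell, with a median of -0.16, and their sum was 83300 to 88900 in Ndrg2KO-labelled samples, against 93500 to 101000 in WT samples. Mcemp1 and the receptor gene Csf3r fell by 0.42 ± 0.08 and 0.25 ± 0.11 (SD, n = 4; limma, adjusted p = 0.00273 and 0.0197), and the microglial receptor gene Cx3cr1 and the macrophage marker Adgre1 by 0.29 ± 0.06 and 0.39 ± 0.14 (adjusted p = 0.00678 and 0.00719). Mcemp1, Cx3cr1 and Adgre1 kept their calls in all 14 alternatives, whereas Csf3r lost its call in 6 and stood at -0.07 with the scanner software's log ratio (adjusted p = 0.388). The other probes of Cx3cr1 and Adgre1 each stood at -0.09 and did not pass. The neutrophil markers Ngp and Ltf had no probe that was kept, and Ly6g and Cd68 were matched by no probe. In these whole tissue samples fewer cells of a type and less RNA per cell cannot be told apart, and the part of these cells in the values of the MMP genes was not tested.

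Mmp11, or stromelysin 3, which is activated inside the cell and acts on few matrix proteins, had 2 probes. The brighter probe read 325, 320, 297 and 350 in Ndrg2KO-labelled samples, against 419, 368, 358 and 390 in WT samples, and the groups did not overlap. Its log2 ratios were -0.37, -0.20, -0.27 and -0.15, a mean of -0.25 ± 0.09 (SD, n = 4) or 1.19-fold lower, and the fall passed in limma (adjusted p = 0.0149). The other probe read 182, 161, 160 and 198 in Ndrg2KO-labelled samples, against 212, 175, 174 and 183 in WT samples, with overlap and a mean of -0.09 ± 0.14 that did not pass (limma, adjusted p = 0.319). The call of the brighter probe was lost in 4 of 14 alternatives. These were the fits without replicate 1 (limma, adjusted p = 0.0541), without replicate 3 (0.0517), with the scanner software's log ratio (0.0535) and with the series matrix (0.0536).

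Mmp14 encodes the membrane-bound MT1-MMP, which works at the cell surface and activates proMMP2 in a complex with TIMP2. It read 300, 288, 364 and 358 in Ndrg2KO-labelled samples, against 261, 262, 244 and 265 in WT samples, and every Ndrg2KO-labelled sample lay above every WT sample. The log2 ratios were 0.20, 0.14, 0.58 and 0.44, with a mean of 0.34 ± 0.20 (SD, n = 4), or 1.26-fold higher (limma, adjusted p = 0.0221; 95% interval 0.16 to 0.52). Unlike Mmp3 and Timp1, it differed most on arrays 3 and 4, and its call was lost without replicate 3 (mean 0.26, adjusted p = 0.0623) or replicate 4 (mean 0.31, adjusted p = 0.0650). Mmp14 lies on chromosome 14, 2.53 Mb from the targeted gene Ndrg2 in the table's assembly, and whether sequence linked to the targeted allele bears on its value was not tested.

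The genes nearest to Mmp14 by its 4 log2 ratios were Cldn5 (difference 0.07), the tight junction gene of brain endothelium, Ypel4 (0.08) and Lrp4 (0.09), a receptor gene of the LDL receptor family. Cldn5 stood at 0.13, 0.02, 0.56 and 0.47 and did not pass (limma, adjusted p = 0.0587), whereas Lrp4 rose by 0.36 ± 0.11 (SD, n = 4; limma, adjusted p = 0.00635).

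Timp2 and Timp3 are the inhibitors that uninjured tissue makes steadily, and TIMP3 is bound to the matrix. The brighter probe of Timp2 read 54800, 58000, 55600 and 51500 in Ndrg2KO-labelled samples, against 53500, 56500, 59400 and 60000 in WT samples, and the other read 1880, 2000, 2510 and 2560 in Ndrg2KO-labelled samples, against 2100, 2180, 2270 and 2460 in WT samples. Neither passed, with means of -0.06 ± 0.12 and -0.02 ± 0.14 (SD, n = 4; limma, adjusted p = 0.466 and 0.834) and 95% intervals of -0.19 to 0.07 and -0.16 to 0.12. Timp3 read 6770, 6790, 7780 and 6280 in Ndrg2KO-labelled samples, against 5610, 6070, 7180 and 6590 in WT samples, with a mean of 0.12 ± 0.14 (SD, n = 4) that did not pass (limma, adjusted p = 0.189; 95% interval -0.02 to 0.26). The groups overlapped for each of these 3 probes, and none of the 3 intervals reached that of Mmp3. With median centring in place of loess all 3 passed as lower. The Timp2 probes stood at -0.70 and -0.32 and Timp3 at -0.24 (limma, adjusted p = 2.08e-05, 0.00197 and 0.00661).

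Members were also set against each other within arrays, as the log2 ratio of the first gene minus that of the second. The 5 pairs, of enzyme and inhibitor or of enzyme and enzyme, were chosen after the values were seen. The difference for Mmp3 minus Timp1 was -0.40, -1.20, -0.55 and -0.89 on arrays 1 to 4, negative on 4 of 4 arrays (mean -0.76 ± 0.36, SD; exact two-sided sign-flip permutation test, p = 0.125, adjusted over the 5 pairs 0.156). For Mmp3 minus Mmp14 it averaged -1.85 ± 0.67, for Mmp3 minus Mmp9 -1.38 ± 0.79 and for Mmp14 minus Timp2 0.40 ± 0.31, each with the same sign on all 4 arrays and the same exact p. For Mmp9 minus Timp1 it averaged 0.62 ± 0.73 with mixed signs (exact permutation p = 0.25, adjusted 0.25). With 4 arrays this test cannot give a p below 0.125, so none could pass. Mmp3 was negative and Mmp14 positive on all 4 arrays, which fixed the sign of their difference. For pairs chosen from these values a shared sign is thus no further result.

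Of the other MMP and TIMP genes, 9 of 17 listed were tested. Of these 1 rose (11.1%, against 8.89% of all genes), none fell (against 12.7%) and 8 did not pass. Their median log2 ratio was -0.04 against -0.02 for all genes. Mmp15, a membrane-bound relative of Mmp14, read a mean of 358 in Ndrg2KO-labelled samples and 317 in WT samples and rose by 0.18 ± 0.07 (SD, n = 4; limma, adjusted p = 0.0322); the call was lost in 5 of 14 alternatives, among them without replicate 1, 2 or 4. The collagenase gene Mmp13, chosen after its value was seen, was well above background in 1 of 4 Ndrg2KO-labelled and 4 of 4 WT samples and stood at -0.20 ± 0.17 (adjusted p = 0.0715). Mmp1a, Mmp1b, Mmp7, Mmp20, Mmp21, Mmp25 and Mmp28 were not bright enough to be tested, and Mmp27 was matched by no probe.

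Of 25 tested activators and regulators of MMPs, 6 fell (24%), 2 rose (8%) and 17 did not pass, with a median of -0.17. Of all genes 12.7% fell and 8.89% rose, and the counts of this and the following lists were not tested against these shares. Thbs1, a matrix protein that binds MMPs, stood at -1.41, -1.58, -0.75 and -0.04 on arrays 1 to 4 and fell by 0.94 ± 0.70 (SD, n = 4; limma, adjusted p = 0.0270), a call lost in 7 of 14 alternatives, among them without replicate 1, 2 or 3 and unpaired (adjusted p = 0.209). The lysosomal protease gene Ctsb fell by 0.27 ± 0.06 and the neutrophil elastase gene Elane by 0.22 ± 0.06 (adjusted p = 0.00855 and 0.0145). Ctsb stood at -0.14 with the scanner software's log ratio (adjusted p = 0.121), and Elane lost its call without replicate 2, without replicate 3 and unpaired (adjusted p = 0.235). Serpinb2, an inhibitor of plasminogen activators, is counted among the 6 at -0.23 ± 0.13 (adjusted p = 0.0293), but it was well above background in 1 of 4 Ndrg2KO-labelled and 4 of 4 WT samples. It entered the test only through the WT channel and turned to 0.28 with median centring, so no fall is read from it, and 5 fell where every sample had to be well above background. Bsg, the surface protein EMMPRIN that induces MMPs, rose by 0.26 ± 0.10, and Serpine2, an inhibitor of thrombin and plasminogen activators, by 0.18 ± 0.07 (adjusted p = 0.0154 and 0.0320), and both turned negative with median centring in place of loess. Calls were lost or reversed in 3 of 14 alternatives for Bsg and in 8 for Serpine2. With 1 array left out in turn, 1 to 5 fell, the fewest without replicate 2 (1) and replicate 1 (2).

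Of 26 tested inducers of MMP transcription, 5 fell (19.2%), none rose and 21 did not pass, with a median of -0.16. Of all genes 12.7% fell and 8.89% rose. Without replicate 1 only 1 inducer fell, and without replicate 2 only 2. The AP-1 subunit gene Jund fell by 0.35 ± 0.15 and Fosb by 0.21 ± 0.12 (SD, n = 4; limma, adjusted p = 0.0104 and 0.0337), the growth factor gene Tgfb1 by 0.34 ± 0.18 and the transcription factor gene Cebpb by 0.22 ± 0.08 (adjusted p = 0.0176 and 0.0181). Of 14 alternatives Jund lost its call in 2, Cebpb in 4, Tgfb1 in 5 and Fosb in 8. Il17a, a cytokine gene of T cells, is counted among the 5 but was not well above background in any Ndrg2KO-labelled sample, and entered the test only through the WT channel. It read means of 72.6 in Ndrg2KO-labelled samples and 86.6 in WT samples and turned to 0.47 with median centring (limma, adjusted p = 0.000108), so no direction is read from it. Where every sample had to be well above background, 4 inducers fell and 1 rose. By array the median of the inducers was -0.28, -0.20, -0.02 and 0.09 on arrays 1 to 4, again lowest on arrays 1 and 2.

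Of 14 tested ADAM and ADAMTS genes, relatives of the MMPs, 1 fell and 1 rose (7.14% each), with a median of -0.10. Of all genes 12.7% fell and 8.89% rose, and with 14 genes a count of 1 is no result about the list. Adamts9, a protease of vessel walls, fell by 0.36 ± 0.29, and Adamts2, which trims procollagen, rose by 0.26 ± 0.21 (SD, n = 4; limma, adjusted p = 0.0432 and 0.0487), though a second probe of Adamts2 stood at -0.04. Adamts9 lost its call in 8 of 14 alternatives and Adamts2 in 9. Of 26 tested substrates in basement membrane, tight junction and perineuronal matrix, 2 fell (7.69%) and 1 rose (3.85%), with a median of -0.06. With 26 genes these counts are likewise no result about the substrates. The basement membrane gene Nid1 fell by 0.48 ± 0.32 and the junction gene Tjp1 by 0.25 ± 0.10 (adjusted p = 0.0235 and 0.0155), while the matrix receptor gene Dag1 rose by 0.18 ± 0.06 (adjusted p = 0.0278) and turned negative with median centring. Other probes of Nid1 stood at -0.14 and -0.08. Calls were lost or reversed in 4 of 14 alternatives for Tjp1 and in 6 each for Nid1 and Dag1. With 1 array left out, 0 ADAM genes were lower without replicate 1, 2 or 3 and 3 without replicate 4, and 0 substrates were lower without replicate 1 or 2 and 3 without replicate 4.

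**Figure D4:**
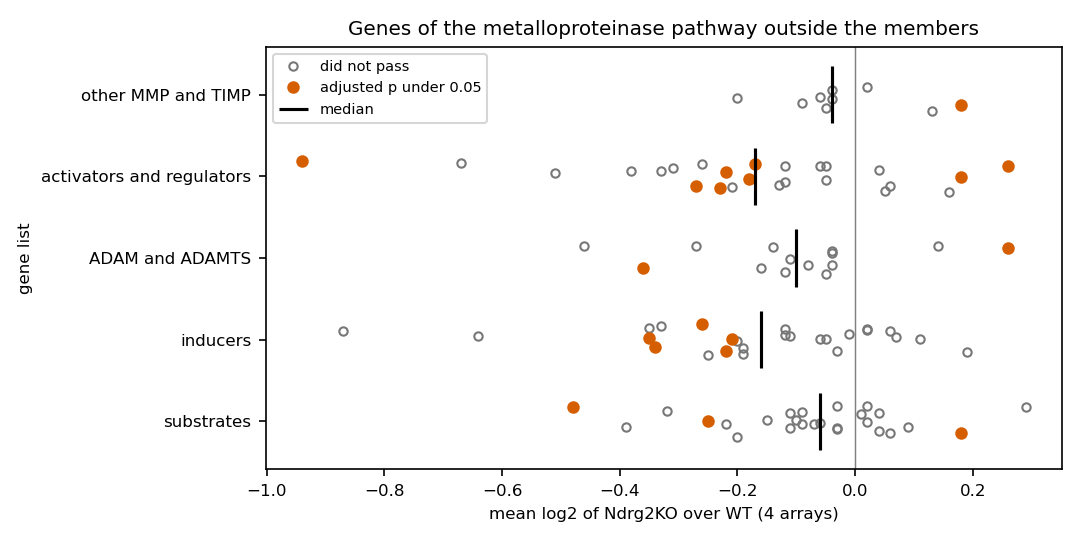
Mean log2 ratio of Ndrg2KO-labelled over WT (horizontal axis) for each tested gene of 5 lists around the MMP family, with the list's median as a black bar and genes at an adjusted p under 0.05 filled. The lowest filled point is Thbs1 at -0.94, whose call was lost in 7 of 14 alternatives, and the medians run from -0.17 to -0.04.

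Markers of other cells that can make MMPs and TIMPs were counted by the same rule. Of all genes 12.7% fell and 8.89% rose, and the counts were not tested against these shares. Of 9 endothelial markers 1 fell (11.1%, median -0.15), and of 9 pericyte and smooth muscle markers 1 fell (11.1%, median -0.06). Mean log2 ratios were below 0 for 7 of the 9 endothelial and 6 of the 9 pericyte and smooth muscle markers. Of 8 fibroblast markers 2 fell (25%, median -0.16) and of 8 astrocyte markers 3 fell (37.5%, median -0.20). Of 8 oligodendrocyte markers 3 rose (37.5%, median 0.12). The fibroblast matrix genes Dcn and Lum fell by 0.40 ± 0.21 and 0.51 ± 0.31 (SD, n = 4; limma, adjusted p = 0.0148 and 0.0180), the endothelial marker Ly6c1 by 0.39 ± 0.25 (adjusted p = 0.0239; its other probe at -0.01) and the pericyte receptor gene Pdgfrb by 0.25 ± 0.20 (adjusted p = 0.0499). Of 14 alternatives the call was lost in 12 for Pdgfrb, among them each array left out, in 7 for Ly6c1 and in 5 each for Dcn and Lum. The summed intensity of astrocyte markers was 171000 to 197000 in Ndrg2KO-labelled samples, against 218000 to 233000 in WT samples, with the Aldoc probe alone at a mean of 99800 in Ndrg2KO-labelled and 131000 in WT samples. That of fibroblast markers was 15000 to 22800 in Ndrg2KO-labelled samples, against 20100 to 24600 in WT samples, with Dcn alone at a mean of 8830 in Ndrg2KO-labelled and 11700 in WT samples. The astrocyte genes Aldoc and Slc1a2 fell by 0.39 ± 0.09 and 0.30 ± 0.09 (adjusted p = 0.00396 and 0.00845), and other probes of Slc1a2 stood at -0.08 and -0.46. Aldoc stood at -0.20 with the scanner software's log ratio (adjusted p = 0.0730), while Slc1a2 kept its call in all 14 alternatives. The oligodendrocyte genes Mal and Olig2 rose by 0.39 ± 0.19 and 0.16 ± 0.04 (adjusted p = 0.0124 and 0.0344), and both turned negative with median centring, which was the only alternative that took the call of Mal, while that of Olig2 was lost or reversed in 8 of 14. Of 8 neuron markers 1 fell, Stmn2 by 0.22 ± 0.10 (adjusted p = 0.0233, lost in 7 of 14 alternatives), and Syt1 stood at 0.20 ± 0.14.

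Markers of tissue outside the cortex and of blood also differed between arrays. Striatal markers had medians of -0.28, -0.46, 0.24 and -0.03 on arrays 1 to 4, with Penk at -0.76, -1.19, 0.43 and -0.23 and Adora2a at -0.68, -1.12, 0.24 and -0.03, and none of the 7 passed. Erythrocyte markers had medians of -0.26, -0.60, -0.01 and 0.22, with Alas2 at -0.28 ± 0.35 and Hbb-bt at -0.18 ± 0.36, and none of the 4 passed. Summed striatal intensity was 35600 to 56000 in Ndrg2KO-labelled samples and 43900 to 61200 in WT samples, and the part of dissection or blood in the values of Mmp3 and Timp1 was not tested.

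**Figure D5:**
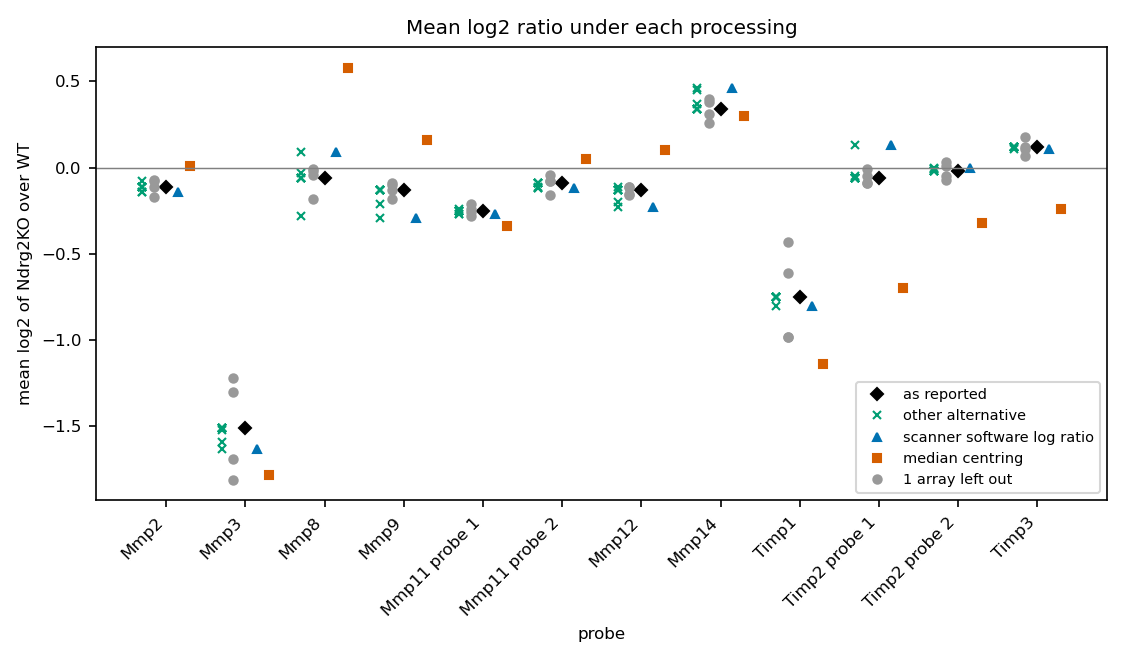
Mean log2 ratio of each tested probe under the processing as reported (black), with 1 array left out (grey), with the scanner software's log ratio (blue), with median centring in place of loess (orange) and under the other alternatives (green). Mmp3, Timp1, Mmp14 and the brighter Mmp11 probe keep their direction, which leaving out 1 array could not have turned. With median centring the dim Mmp8 stood at 0.58 and the bright Timp2 at -0.70.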

How the data were processed

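Each of 4 arrays compared 1 Ndrg2KO-labelled sample (Cy3) with 1 WT sample (Cy5); the labels gave groups, dyes and replicate numbers. Spot and background signals are intensities as deposited, made with Agilent Feature Extraction 11.0.1.1, per the file headers; the submitters' processing notes name 10.7.3.1. The scanner software's log10 ratio is Cy5 over Cy3 of its processed signals, per the file headers. Log2 values stand in the deposited value table, and they equalled log2 of processed Cy5 over Cy3 within 0.001 for all 39030 single-spot probes; their column medians were -0.05, -0.06, -0.04 and -0.03, and the sign was turned for use here. The other deposited values, 0 or 1 per the file headers, mark spots well above background, saturated (0 spots) or outliers.

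Only median spot signals were present. They were corrected by normexp (offset 50) and loess within arrays in limma 3.58.1 (R 4.3.3), controls at weight 0, the 139 to 186 outlier spots per array left out and spots of 1 probe averaged. Probes well above background on at least 3 of 4 arrays in either channel were kept (30257 of 39429), and 69.6% of probes received a symbol through RefSeq transcripts (GRCm38.p6; the array is annotated on mm9). Log2 ratios were tested against 0 with lmFit and eBayes over all kept probes, Benjamini-Hochberg adjusted, the array pairing its samples (deviations of its channels correlated at 0.21 to 0.576). Levels are after Aquantile. For lists the brightest probe stood for a gene. Of 50 simulated probes each changed 1.2-fold, 1.5-fold, 2-fold and 4-fold among 30243, 16, 41, 49 and 50 were recovered, with 4 false calls in all. The simulated noise was independent between arrays and centred on 0, so neither shared variation nor a dye effect was imitated. The 4 false calls thus give no rate for the calls in the real data. Members, lists and tests were chosen with earlier results of these data known. Named genes were the members, Ndrg2, up to 6 genes that passed per pathway list and 2 per marker list by smallest p, and the 3 genes nearest to Mmp3, Mmp14 and Timp1, passing over clone, predicted and RIKEN names.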

Additional observations from a re-analysis of the deposited data

Results flagged for a closer look

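Of 59 probes of named genes, 3 had an array far from the remaining 3, by a gap to the nearest value that took up more of the whole range than Dixon's critical value for 4 samples allows; chance alone gives 2.95. For Serpinb2 the gap was 0.834 of the range: array 3 read -0.04 and the rest averaged -0.29. For Fosb it was 0.920, array 1 reading -0.38 and the rest -0.15. For Adgre1 it was 0.867, array 2 reading -0.18 and the rest -0.47. None of the 12 tested probes of the MMP and TIMP genes met this limit.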

How the results depend on the processing

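Over all kept probes 3527 were lower and 2811 higher. Leaving out 1 array gave 1356 to 2164 lower and 1064 to 1651 higher, and no replicate block, that is the channels as unpaired samples, 1748 and 1645. Lower calls numbered 2104 with normexp at offset 0, 2029 with the scanner software's log ratio and 2027 with the series matrix, and median centring gave 15613 lower and 7881 higher, with a median of all kept probes of -0.157. Of the member probes 2 were lower and 1 higher. Leaving out 1 array gave 0 to 2 lower and 0 to 1 higher, no replicate block 1 lower, the scanner software's log ratio and the series matrix 0 lower each, and median centring 6 lower and 3 higher. Of the other MMP and TIMP genes 0 were lower and 1 higher: 1 lower without background subtraction, 3 lower and 5 higher with median centring, 0 higher with no replicate block, and 0 to 1 each way with 1 array left out. Over all alternatives 1 to 13 activators and regulators were lower and 0 to 5 higher, 0 to 9 and 0 to 1 ADAM genes, 1 to 18 and 0 to 4 inducers, and 0 to 20 and 0 to 1 substrates, the upper ends under median centring.

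Direction held for Mmp3, Timp1, Mmp14 and the brighter Mmp11 probe under every alternative run. Their log2 ratios had the same sign on every array, so leaving out 1 array could not turn it. The changed filters, the unpaired fit and the kept outlier spots reused the same ratios and could not turn it either. Only the settings that changed the background step, the normalisation or the log ratio itself could have done so. With median centring Mmp2 stood at 0.01, Mmp8 at 0.58, Mmp9 at 0.16, the dimmer Mmp11 probe at 0.05, Mmp12 at 0.10 and Timp3 at -0.24, and of other genes Bsg at -0.14, Serpinb2 at 0.28, Serpine2 at -0.13, Il17a at 0.47, Dag1 at -0.13, Syt1 at -0.49, Mal at -0.22, Olig2 at -0.09 and Cldn5 at -0.05. With the scanner software's log ratio and the series matrix alike Mmp8 stood at 0.09, the brighter Timp2 probe at 0.13 and the dimmer at 0.00, which ranged from -0.07 to 0.03 with 1 array left out. The cause was not tested. Of 165 values of member probes under alternatives, 138 kept direction and call, and of 656 of other named genes, 466. A probe that did not pass counts as kept when it still did not pass, so these counts do not measure how firm the calls were. The calls of Mmp3 and the brighter Mmp11 probe were lost in 4 of 14 alternatives each, and that of Mmp14 in 2. No member probe that passed kept its call in all alternatives, whereas 6 other named genes did. Loss of a call with 1 array fewer comes with fewer samples. Mmp8 and the dimmer Mmp12 probe were limited by signal near background.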
